A study of Nicotiana tabacum with 9 samples.

Results

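Transcript levels of plant peroxidase genes were read from young leaves of tobacco, Nicotiana tabacum, in 9 RNA-seq libraries. The genes were chosen by description and level. The description had to hold the domain name plant peroxidase or secretory peroxidase and not ascorbate, and the value had to reach 1 in at least 3 of the 9 libraries. Of 69500 genes in the table, 210 had such a description and 40 of these also met the level. The genotype labels were NC82, M21 and G27, each with 3 libraries, and all came from young leaf at the squaring period (flower bud formation). NC82 is a tobacco cultivar and is used here as the reference. The series concerns NtAN3, a co-activator of leaf cell proliferation, in leaf size. The labels give no allele, construct, promoter or clone number for M21 or G27, and no treatment or plant age, and do not say whether replicates were separate plants. P-values therefore measure the spread between these samples, which may be technical.

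Class III peroxidases are haem enzymes of land plants that are mostly sent to the cell wall or the vacuole. With hydrogen peroxide they oxidise phenolic compounds, which joins monolignols into lignin and cross-links wall polymers and structural proteins. They can also produce reactive oxygen species, and in leaves they are known from wall stiffening at the end of cell expansion and from defence. The family is large, and many of its genes arose by duplication.

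All 210 descriptions carried the domain name plant peroxidase, and 0 carried secretory peroxidase. The class was thus checked by domain only. The table held no gene symbol or signal peptide, and 0 of the 40 identifiers were found in the RefSeq gene table of N. tabacum, so no gene can be given a role of its own and no sequence is printed. Another 18 genes were described as ascorbate peroxidases, the class that detoxifies hydrogen peroxide inside the cell, and 14 had another haem peroxidase description outside the rule. Tobacco is an allotetraploid, and how reads were divided between near-identical copies is not known, so each gene's level carries that uncertainty.

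Values are the authors' normalized expression, called level below. The value of a gene seen in 1 library only ranged from 0.02 at the lowest decile to 0.6 at the highest over 2966 such genes. How many reads lay behind each value is not known. This range therefore does not settle the unit or whether it is per transcript length. Library sums lay between 771390 and 790816, between 42762 and 44059 genes were above 0, and estimated relative depths ran from 0.794 to 1.2 of NC82 replicate 1, with M21 at 0.794 to 0.893. On the third principal component of all genes, the first NC82, the third M21 and the first G27 library had positive scores of 16.0 to 22.9 and the other 6 had negative scores of -18.9 to -2.06. The other M21 and G27 libraries were also spread along it. The gene Nitab4.5_0007901g0050, described as of the SS18 family to which AN3 belongs, was at 0.25 to 0.34 in NC82, 4.32 to 5.8 in M21 and 604.4 to 760.1 in G27. Leaf tissue was checked by the summed level of 93 chlorophyll a/b binding genes, which was 33346 to 38705 in NC82, 33888 to 41361 in M21 and 33686 to 39566 in G27. Over all libraries, ribulose bisphosphate carboxylase genes summed to 40505 to 46674 and photosystem genes to 54834 to 62545. Genes of seed storage proteins and oleosins summed to at most 24.2 in any library. Genes with pollen in the description summed to 1967 to 2123 in NC82, 1997 to 2064 in M21 and 1814 to 2020 in G27. They are mostly extensin-type and expansin domain genes, so their sum does not mark pollen alone.

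Most of the family was low or unseen in these leaves. Of the 170 family genes below the level rule, 69 were listed at 0 in every library, 101 were above 0 somewhere and 9 reached 1 in 1 or 2 libraries. Of the 40 genes kept, 29 were at 1 or more in all 9 libraries, 12 had a mean of 10 or more, 18 a mean between 2 and 10, and 10 a mean under 2. Just inside the level rule were Nitab4.5_0007988g0020, Nitab4.5_0002604g0030 and Nitab4.5_0000241g0260, which in the library that decided their entry, the lowest of the top 3, stood at 1.11, 1.16 and 1.65. Just outside were Nitab4.5_0008304g0020 at 0.97 and Nitab4.5_0007171g0010 and Nitab4.5_0007397g0010, both at 0.89. Only 2 of the 40 genes, Nitab4.5_0002604g0030 and Nitab4.5_0007988g0020, needed their highest group to pass. For these the level rule itself favoured a difference between groups.

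**Figure D1:**
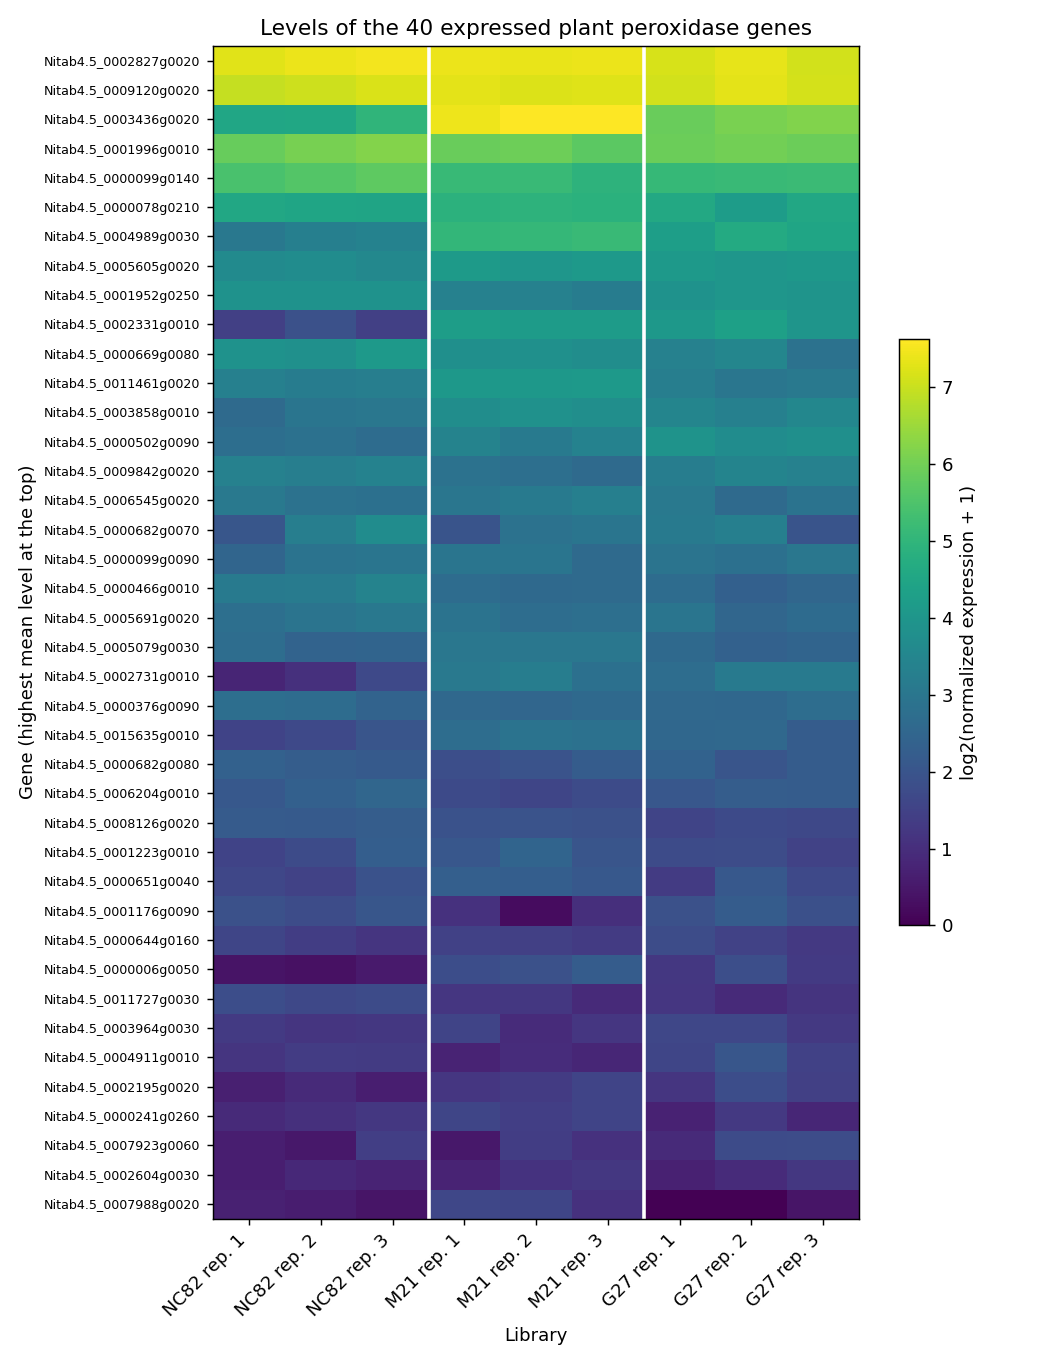
Level of each of the 40 peroxidase genes (rows, highest mean at the top) in each of the 9 libraries (columns), as colour on the scale log2(level + 1). The top rows are bright in all 3 groups, while the row of Nitab4.5_0003436g0020 runs from 21.7 to 30.7 in NC82 and from 172.5 to 197.0 in M21.

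A few genes held most of the level. The 10 highest genes made up 79.4% to 83.2% of the summed level of the 40 genes in each library. Nitab4.5_0002827g0020 was the highest by mean, at 155.4, 167.8 and 177.7 in the 3 NC82 libraries, 170.2, 164.9 and 167.9 in M21 and 141.8, 161.1 and 137.7 in G27. NC82 overlapped both lines while M21 lay above G27, and the gene was not called in any comparison. Nitab4.5_0009120g0020 followed at 123.1, 131.6 and 145.4 in NC82, 159.4, 150.4 and 151.9 in M21 and 137.7, 159.9 and 139.9 in G27. All 3 M21 libraries lay above NC82, but the log2 change of 0.21 (SE 0.08) did not pass the test, with a limma adjusted p of 0.087. Together these 2 genes held 48.1% to 48.7% of the summed level in NC82, 36.7% to 39.2% in M21 and 42.2% to 45.1% in G27. Nitab4.5_0001996g0010 stood at 65.6 ± 7.82 in NC82, 56.8 ± 4.68 in M21 and 60.3 ± 2.00 in G27 (SD, n = 3), and was not called.

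The summed level of the 40 genes was 571.6, 615.2 and 672.5 in NC82, 841.3, 858.4 and 844.6 in M21 and 651.7, 712.1 and 657.9 in G27. All M21 libraries were above all others, and G27 overlapped NC82. A single gene, Nitab4.5_0003436g0020, made up 3.61% to 4.56% of the sum in NC82, 20.5% to 23.0% in M21 and 8.89% to 10.9% in G27. Without it the sums were 594.9 ± 46.0 in NC82, 660.0 ± 9.49 in M21 and 608.3 ± 31.7 in G27 (SD, n = 3). In bulk leaf, more cells that express a gene and more RNA per cell cannot be told apart, here and below.

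**Figure D2:**
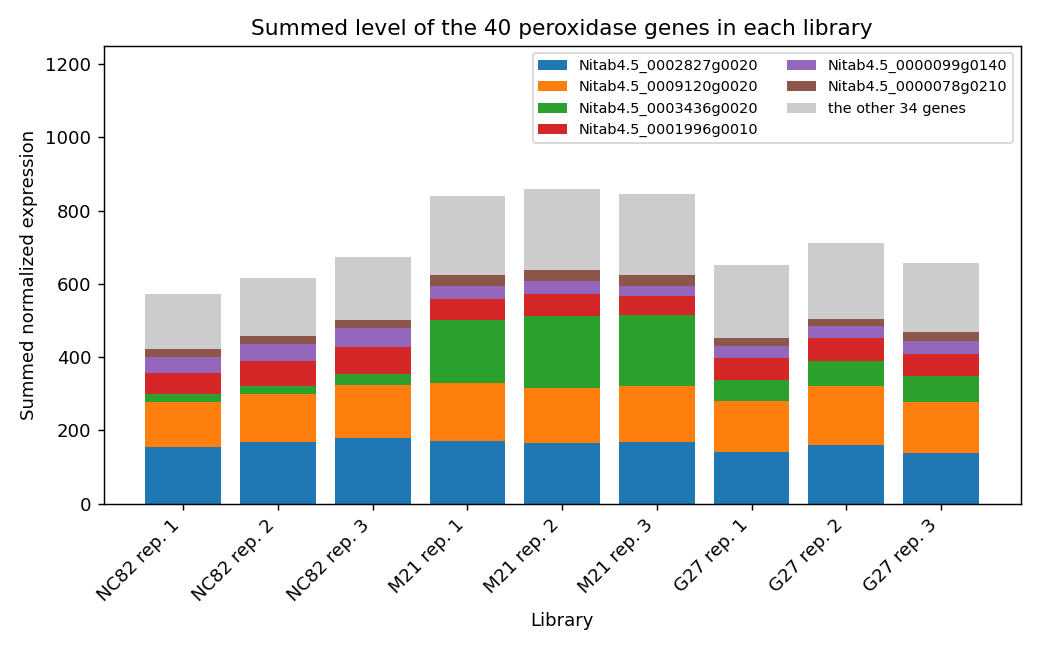
Summed level of the 40 peroxidase genes (vertical axis, normalized expression) in each library, with the 6 highest genes in colour and the other 34 in grey. The M21 bars reach 841.3 to 858.4, and the segment of Nitab4.5_0003436g0020 is the one that differs most in height between groups.

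M21 against NC82 asked how peroxidase expression in this line departs from the cultivar. Of the 40 genes, 14 rose and 9 fell, where 13.0% and 11.3% of all 33188 tested genes did. Together 57.5% of the 40 genes were called, against 24.3% of all tested genes, and this gap was not tested. These counts include Nitab4.5_0007988g0020, which was among the 40 only through its M21 libraries, so the level rule favoured its rise. The median log2 change was 0.17 for the 40 genes and 0.03 for all tested genes. Changes are log2 fold changes of level + 1, and calls were made at a Benjamini-Hochberg adjusted p under 0.05 over all tested genes. Of the called genes, 6 rose by a log2 change of 1 or more, as 1.90% of all tested genes did.

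On the scale of log2(level + 1), Nitab4.5_0003436g0020 had the largest rise. It stood at 21.7, 22.2 and 30.7 in NC82 and at 172.5, 197.0 and 194.7 in M21. Every M21 library was above every NC82 library, and the gene moved from well below the pair of highest peroxidases to a level above them in each M21 library. The ratio of means was 7.56 and the log2 change 2.88 (SE 0.13), with a limma adjusted p of 4.4e-07. Nitab4.5_0002331g0010 rose from 1.72, 2.68 and 1.70 to 17.9, 17.3 and 17.4. The groups did not overlap, the ratio of means was 8.61 and the log2 change was 2.63 (SE 0.13, limma adjusted p = 7.0e-07). With a pseudocount of 0.1 its log2 change was 3.08 and that of Nitab4.5_0003436g0020 was 2.93, so the order of these genes depends on the value added. Nitab4.5_0004989g0030 rose from 7.39, 8.77 and 9.49 to 32.1, 32.7 and 34.8, by a log2 change of 1.84 (SE 0.11, limma adjusted p = 2.0e-06). In this gene too, all M21 libraries were above all NC82 libraries.

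Other large rises came from genes that were low in NC82. Nitab4.5_0002731g0010 stood at 0.73, 1.10 and 2.24 in NC82 and at 7.42, 8.40 and 6.08 in M21, with a log2 change of 1.86 (SE 0.21, limma adjusted p = 0.00012). Its NC82 libraries varied widely, with a coefficient of variation of 58.0%, but stayed below all M21 libraries. Nitab4.5_0000006g0050 was under 1 in every NC82 library, at 0.31, 0.26 and 0.47, and at 2.52, 2.75 and 3.66 in M21. The ratio of means was 8.59, and the log2 change of 1.55 (SE 0.17, limma adjusted p = 7.9e-05) is smaller than the log2 of this ratio because 1 is added to each value. With a pseudocount of 0.1 it was 2.79. Nitab4.5_0015635g0010 rose from 2.39 ± 0.601 to 6.16 ± 0.467 (SD, n = 3), by 1.09 (SE 0.13, limma adjusted p = 0.0002).

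**Figure D3:**
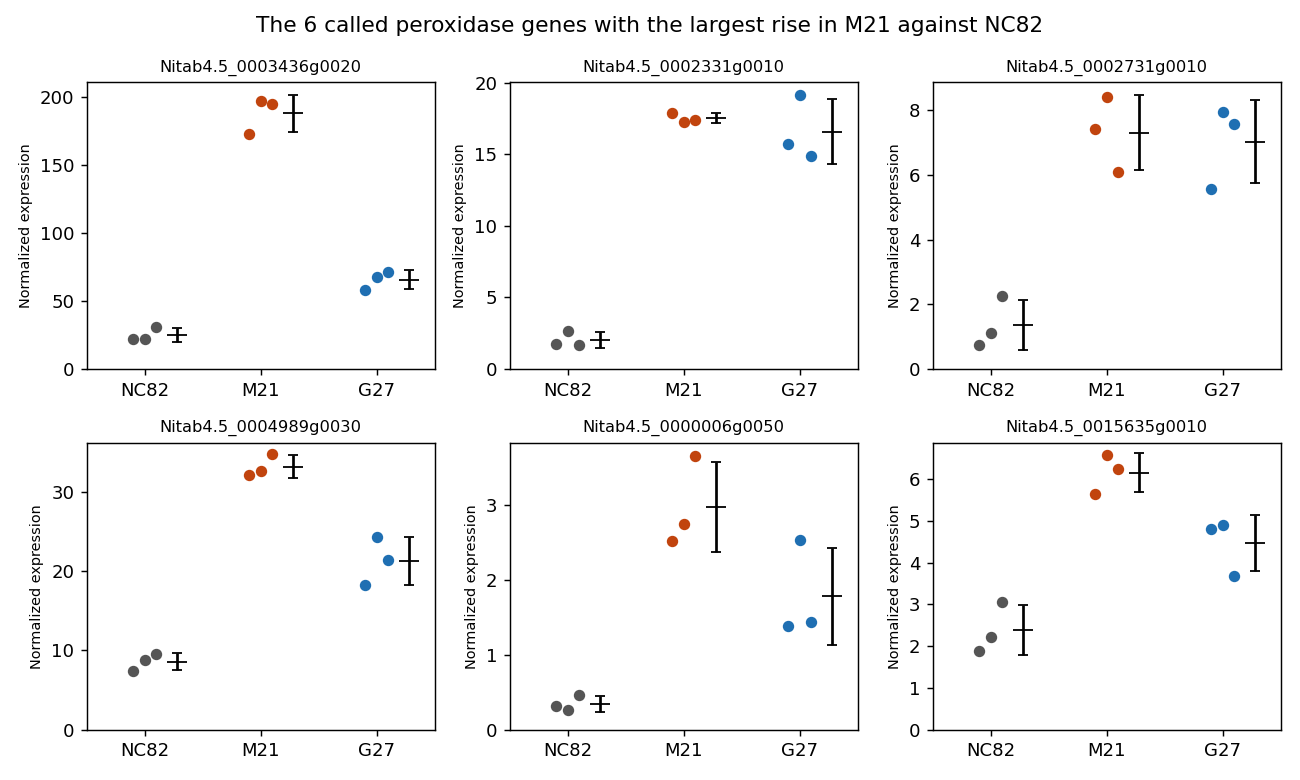
Level (vertical axes, normalized expression, each from 0) of the 6 peroxidase genes with the largest called rise in M21 against NC82, with 1 point per library and the mean ± SD (n = 3) in black beside it. No M21 point overlaps an NC82 point in any panel, and in Nitab4.5_0003436g0020 the G27 points lie between both groups at 57.9 to 71.5.

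The other 8 rises were smaller. Nitab4.5_0003858g0010 rose from 6.36 ± 1.05 to 12.8 ± 0.576 and Nitab4.5_0011461g0020 from 8.63 ± 0.461 to 16.0 ± 0.351 (SD, n = 3), by log2 changes of 0.92 and 0.82. Nitab4.5_0000502g0090 rose by 0.54, Nitab4.5_0005079g0030 by 0.49, Nitab4.5_0005605g0020 by 0.44 and Nitab4.5_0000078g0210 by 0.40. The last of these went from 21.8 ± 0.974 to 29.1 ± 0.586 (SD, n = 3), and its call was lost without NC82 replicate 3 (limma adjusted p = 0.052). Nitab4.5_0002195g0020, at 0.60, 0.86 and 0.57 in NC82 and 1.31 to 1.94 in M21, rose by 0.62 (limma adjusted p = 0.018). That call was lost without NC82 replicate 3 (limma adjusted p = 0.061) or M21 replicate 3 (0.071). Nitab4.5_0007988g0020 was at 0.64, 0.53 and 0.34 in NC82 and 2.11, 2.02 and 1.11 in M21, a log2 change of 0.85 (limma adjusted p = 0.0058). With a pseudocount of 0.1 in place of 1 its log2 change was 1.60 and its limma adjusted p was 0.078. This gene met the level rule only through its M21 libraries, so the rule favoured its rise and its test supports nothing.

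The 9 falls were moderate, and the deepest concerned a gene of low level. Nitab4.5_0001176g0090 stood at 2.70, 2.42 and 3.11 in NC82 and at 1.13, 0.19 and 1.06 in M21. All M21 libraries were below all NC82 libraries, M21 replicate 2 being far below the other two, and the log2 change was -1.11 (SE 0.20, limma adjusted p = 0.0026), or -1.92 with a pseudocount of 0.1. The highest gene among the falls was Nitab4.5_0000099g0140. It stood at 42.4, 47.4 and 52.7 in NC82 and at 34.5, 35.1 and 29.4 in M21, a log2 change of -0.51 (SE 0.09, limma adjusted p = 0.0024). Its groups did not overlap.

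Nitab4.5_0001952g0250 was nearly even in NC82, at 13.9, 13.7 and 13.9, and stood at 9.15, 9.18 and 8.19 in M21. Its log2 change was -0.59 (SE 0.07, limma adjusted p = 0.00019), and no library of either group reached into the other. Nitab4.5_0006204g0010 fell by 0.63, Nitab4.5_0011727g0030 by 0.60, Nitab4.5_0009842g0020 by 0.58 and Nitab4.5_0000466g0010 by 0.57 on the log2 scale. The ratios of their M21 to NC82 means were 0.552, 0.515, 0.634 and 0.630. The fall of Nitab4.5_0011727g0030 was not called without the 3 libraries with positive scores on the third component (limma adjusted p = 0.051).

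The calls of both other falls were lost when most single libraries were left out, which leaves fewer samples. Nitab4.5_0008126g0020, at 3.61 ± 0.132 in NC82 and 2.79 ± 0.0757 in M21 (SD, n = 3), changed by -0.28 (limma adjusted p = 0.027). Leaving out any library of both groups other than M21 replicate 2 took its limma adjusted p to between 0.057 and 0.1. Nitab4.5_0004911g0010, at 1.45 ± 0.163 and 0.81 ± 0.118 (SD, n = 3), changed by -0.44 (limma adjusted p = 0.048), and leaving out any of the 6 libraries took the limma adjusted p to between 0.057 and 0.14. In the fits that lost the call, the log2 change lay between -0.30 and -0.26 for Nitab4.5_0008126g0020 and between -0.49 and -0.40 for Nitab4.5_0004911g0010.

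The remaining 17 genes were not called. In 4 of them the groups nevertheless did not overlap, namely Nitab4.5_0009120g0020, Nitab4.5_0000669g0080, Nitab4.5_0000651g0040 and Nitab4.5_0000241g0260, the last pair with log2 changes of 0.53 and 0.44 and limma adjusted p of 0.054 and 0.055. In all, the groups did not overlap in 27 of the 40 genes, against 40.3% of all tested genes.

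The same question was put to G27 against NC82. Here 10 of the 40 genes rose and 5 fell, where 7.87% and 6.05% of all tested genes did. The called share was 37.5% of the 40 genes and 13.9% of all tested genes, again with no test of the gap. The median log2 change was 0.01 for the 40 genes and 0.05 for all tested genes. A rise of 1 or more on the log2 scale was called for 6 genes, as for 1.52% of all tested genes. This comparison uses the same NC82 libraries as M21 against NC82, so a chance deviation of NC82 would enter both, and the values of each line are given side by side. No gene was called up in 1 line and down in the other.

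Nitab4.5_0002331g0010 had the largest rise, from 1.72, 2.68 and 1.70 in NC82 to 15.7, 19.1 and 14.9 in G27. The groups were far apart, with a ratio of means of 8.15 and a log2 change of 2.54 (SE 0.13, limma adjusted p = 1.2e-06), beside 2.63 in M21. Nitab4.5_0002731g0010 rose to 5.57, 7.93 and 7.58, by 1.81 (SE 0.21, limma adjusted p = 0.00019), beside 1.86 in M21. Nitab4.5_0003436g0020 rose to 57.9, 67.4 and 71.5, by 1.38 (SE 0.13, limma adjusted p = 3.9e-05). Its G27 libraries lay above all NC82 and below all M21 libraries, and its rise in M21 was 2.88.

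Nitab4.5_0004989g0030 reached 18.2, 24.3 and 21.4 in G27, a rise of 1.22 (SE 0.11, limma adjusted p = 3.3e-05). Nitab4.5_0000502g0090 rose from 5.79, 6.18 and 5.51 in NC82 to 14.22, 11.99 and 13 in G27, by 1.04 (SE 0.09, limma adjusted p = 3.0e-05). Its G27 libraries all lay above its M21 libraries, which had 8.97 ± 0.919 (SD, n = 3). Nitab4.5_0000006g0050 rose to 1.38, 2.53 and 1.44, by 1.03 (SE 0.17, limma adjusted p = 0.0017), or 2.05 with a pseudocount of 0.1, with G27 replicate 2 well above the other two. Nitab4.5_0002195g0020, Nitab4.5_0015635g0010, Nitab4.5_0003858g0010 and Nitab4.5_0005605g0020 rose by 0.73, 0.70, 0.58 and 0.43. The rise of Nitab4.5_0015635g0010 was not called without the 3 libraries with positive scores on the third component (limma adjusted p = 0.061).

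The 5 falls in G27 were all under 1 on the log2 scale. Nitab4.5_0000466g0010 stood at 7.62, 7.96 and 9.54 in NC82 and 5.42, 4.10 and 4.70 in G27, a change of -0.71 (SE 0.10, limma adjusted p = 0.00094). The groups did not overlap. Nitab4.5_0000669g0080 fell from 13.7, 13.3 and 16.2 to 9.18, 10.3 and 6.38, by a change of -0.70 (SE 0.14, limma adjusted p = 0.0061), G27 replicate 3 being the lowest. In M21 it was at 12.8 ± 0.393 (SD, n = 3) and was not called (limma adjusted p = 0.49). Nitab4.5_0011727g0030, Nitab4.5_0008126g0020 and Nitab4.5_0000099g0140 changed by -0.64, -0.56 and -0.43. Of these, Nitab4.5_0000099g0140 stood at 33.6, 35.0 and 35.7 in G27, all below the lowest NC82 value of 42.4. In all, the groups did not overlap in 16 of the 40 genes, against 30.6% of all tested genes.

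**Figure D4:**
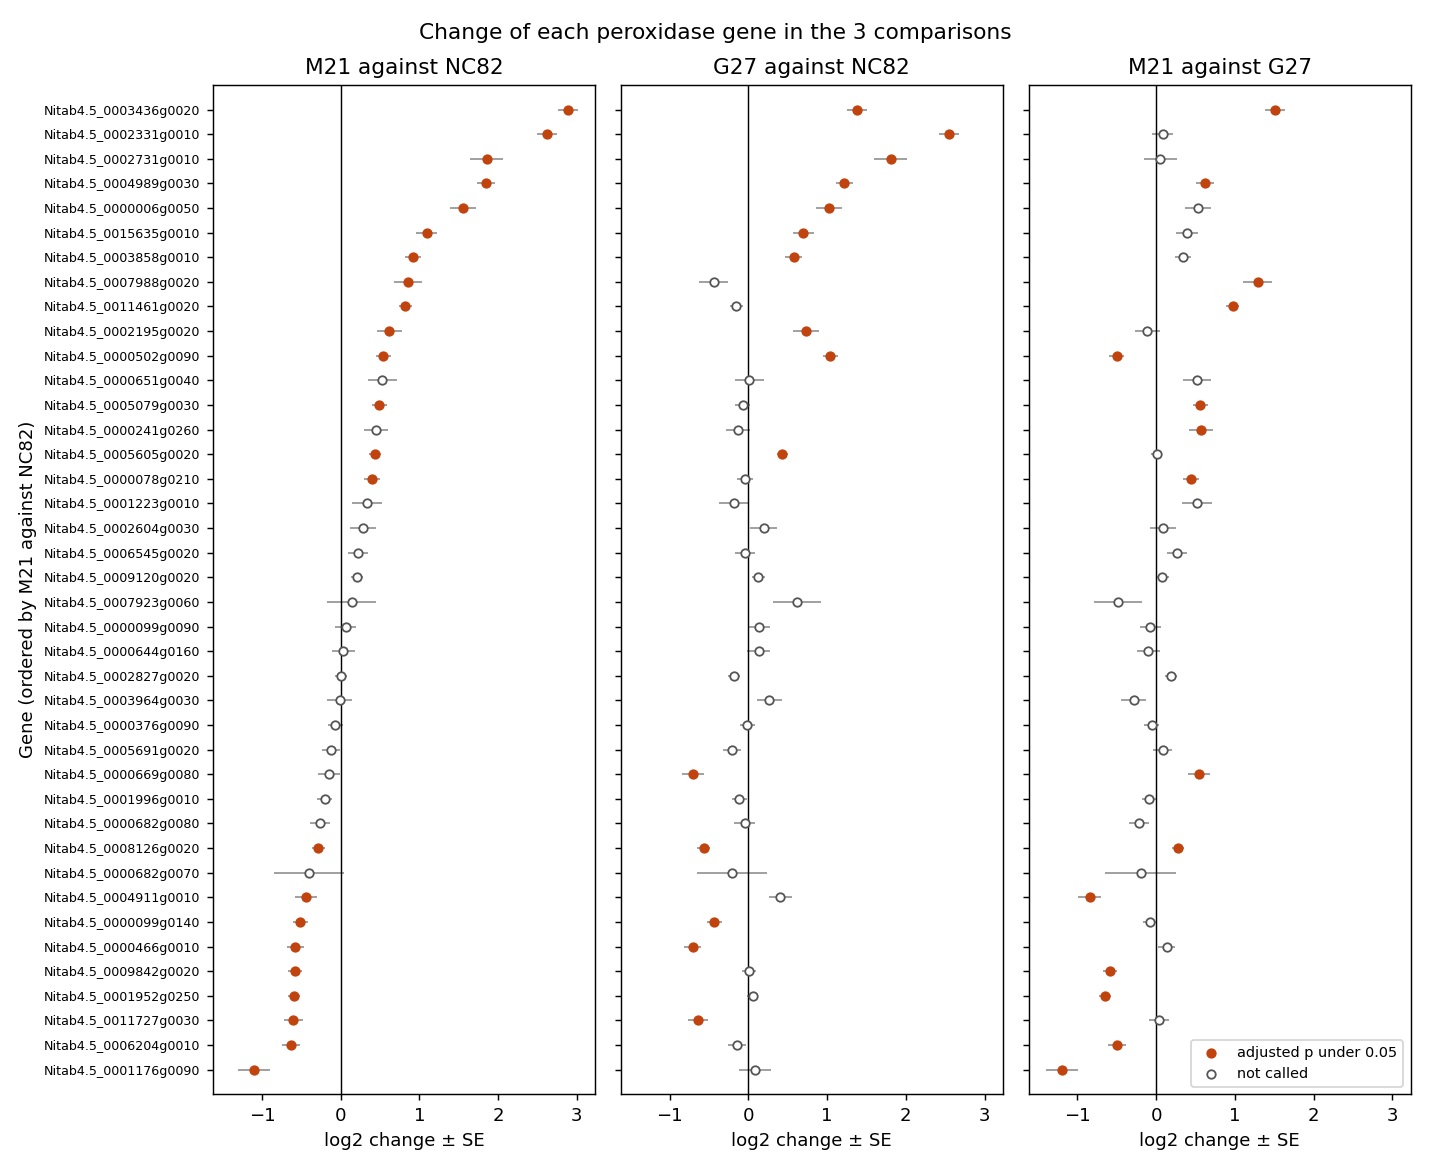
Log2 change ± SE (horizontal axes) of each of the 40 peroxidase genes (rows, ordered by M21 against NC82) in the 3 comparisons, with filled points for genes called at an adjusted p under 0.05. Changes run from -1.11 to 2.88 in M21 against NC82, from -0.71 to 2.54 in G27 against NC82 and from -1.19 to 1.51 in M21 against G27.

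M21 against G27 tested the difference between both lines directly. In M21, 9 of the 40 genes were higher and 6 were lower, where 5.47% and 6.40% of all tested genes were. The called share was 37.5%, against 11.9% of all tested genes. A difference of 1 or more on the log2 scale was called higher for Nitab4.5_0003436g0020 and Nitab4.5_0007988g0020, and for 0.328% of all tested genes. The second of these was among the 40 only through its M21 libraries, so the level rule favoured its difference and the 2 genes are not read against that share. The median log2 change was 0.08 for the 40 genes and -0.01 for all tested genes. The number called higher fell to 5 without M21 replicate 1 and to 5 without M21 replicate 2. In these fits the share of all tested genes called higher fell from 5.47% to 3.07% and 4.54%. In all, the groups did not overlap in 19 of the 40 genes, against 28.6% of all tested genes.

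Nitab4.5_0003436g0020 had the largest difference on the scale of log2(level + 1), at 172.5, 197.0 and 194.7 in M21 and 57.9, 67.4 and 71.5 in G27. The groups did not overlap, and the log2 difference was 1.51 (SE 0.13, limma adjusted p = 0.00012). Nitab4.5_0011461g0020 was at 15.8, 15.9 and 16.4 in M21 and 8.69, 6.98 and 7.43 in G27, a difference of 0.97 (SE 0.08, limma adjusted p = 0.00012). G27 overlapped NC82 in this gene, which had 9.08, 8.16 and 8.66. Nitab4.5_0007988g0020 was at 2.11, 2.02 and 1.11 in M21, and in G27 it was listed at 0 in replicates 1 and 2 and at 0.35 in replicate 3. Its difference was 1.29 (SE 0.18, limma adjusted p = 0.0015), and with a pseudocount of 0.1 it was 3.43, above the 1.52 of Nitab4.5_0003436g0020.

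Nitab4.5_0004989g0030 was higher in M21 by 0.62 (SE 0.11, limma adjusted p = 0.0049) and Nitab4.5_0005079g0030 by 0.56 (SE 0.10, limma adjusted p = 0.0042). The second gene was at 7.20, 7.22 and 7.17 in M21 against 5.04, 4.15 and 4.47 in G27. Its coefficient of variation within M21, 0.35%, was the smallest of the 40 genes in that group. The other 4 genes called higher lost their call when single libraries were left out. Nitab4.5_0000078g0210 was higher by 0.44, with a limma adjusted p of 0.059 without M21 replicate 1 and of 0.054 without M21 replicate 2. Nitab4.5_0000669g0080 was higher by 0.55, and leaving out any 1 M21 replicate or G27 replicate 3 put its limma adjusted p between 0.052 and 0.085. Nitab4.5_0000241g0260 was higher by 0.57, and leaving out any 1 M21 replicate or G27 replicate 1 or 3 put it between 0.055 and 0.11. Nitab4.5_0008126g0020 was higher by 0.28, and leaving out any 1 of the 6 libraries put it between 0.059 and 0.14.

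Among the 6 genes lower in M21, Nitab4.5_0001176g0090 stood at 1.13, 0.19 and 1.06 in M21 and 2.72, 3.66 and 2.6 in G27. No libraries overlapped, and the log2 difference was -1.19 (SE 0.20, limma adjusted p = 0.0041), or -2.04 with a pseudocount of 0.1. Nitab4.5_0004911g0010 was at 0.71, 0.94 and 0.78 in M21 and 1.99, 3.10 and 1.78 in G27, a difference of -0.84 (SE 0.14, limma adjusted p = 0.0041), or -1.36 with a pseudocount of 0.1. Its NC82 libraries, at 1.27, 1.58 and 1.51, lay between both lines without touching either. Nitab4.5_0001952g0250 was at 9.15, 9.18 and 8.19 in M21 and 13.8, 15.1 and 14.3 in G27, with NC82 at 13.7 to 13.9, which overlapped G27. Its difference was -0.65 (SE 0.07, limma adjusted p = 0.00042).

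Nitab4.5_0009842g0020 had the same order of groups, with 6.30, 5.91 and 5.17 in M21, 8.48, 9.88 and 9.20 in G27 and 9.31, 8.58 and 9.52 in NC82, and a difference of -0.59 between the lines (SE 0.09, limma adjusted p = 0.0022). Its G27 and NC82 libraries overlapped. Nitab4.5_0000502g0090 had a difference of -0.50 (SE 0.09, limma adjusted p = 0.0063), although it rose in both lines against NC82. For Nitab4.5_0006204g0010 the difference was -0.49 (limma adjusted p = 0.017). Without M21 replicate 1 or 2 or G27 replicate 2 or 3, its limma adjusted p lay between 0.0502 and 0.0587.

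**Figure D5:**
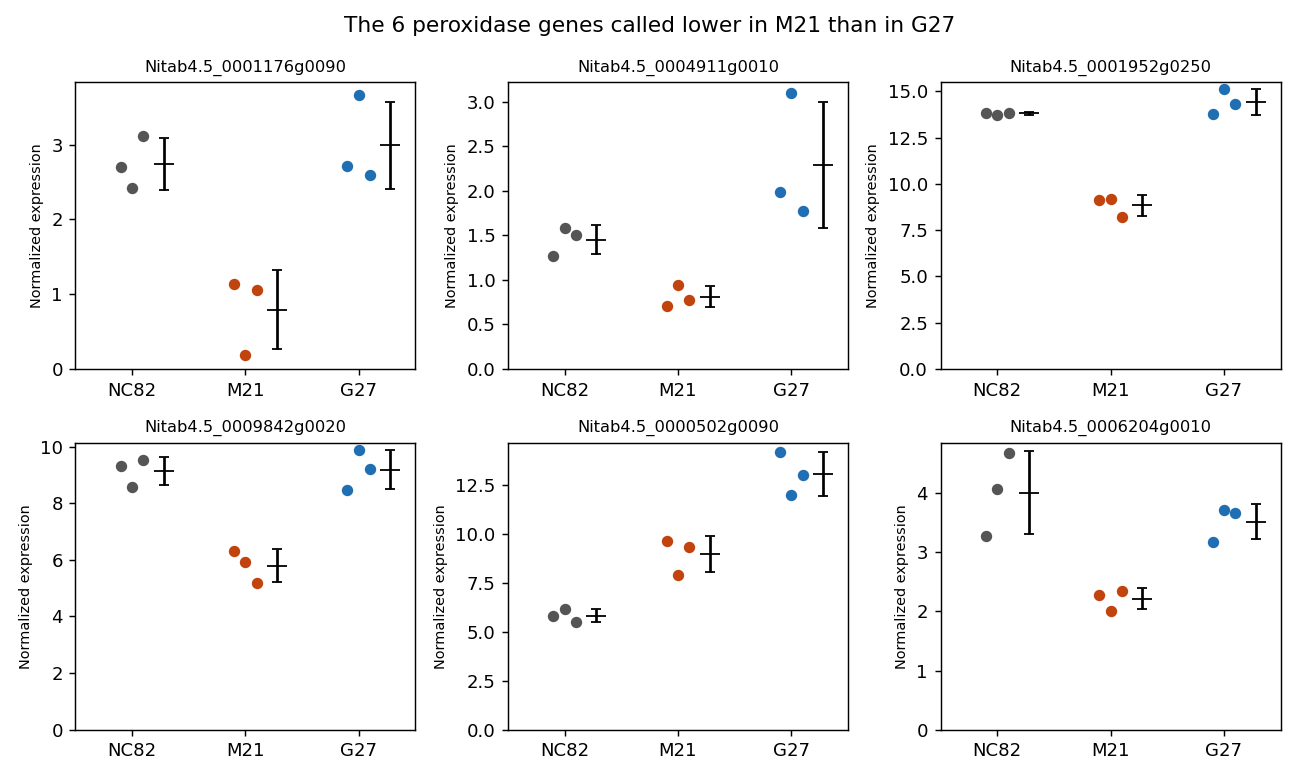
Level (vertical axes, normalized expression, each from 0) of the 6 peroxidase genes called lower in M21 than in G27, with 1 point per library and the mean ± SD (n = 3) in black. M21 is the lowest group in 5 panels, while in Nitab4.5_0000502g0090 both lines are above NC82, which lies at 5.51 to 6.18.

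In total, 25 of the 40 genes were called in at least 1 comparison and 15 in none. Of all tested genes, 24.3% were called in M21 against NC82, 13.9% in G27 against NC82 and 11.9% in M21 against G27. Their share called in at least 1 comparison was not counted, so the 25 are not read against it. The 15 included Nitab4.5_0000682g0070, the pair of highest genes, Nitab4.5_0001996g0010 and, at middle levels, Nitab4.5_0006545g0020, Nitab4.5_0000099g0090, Nitab4.5_0005691g0020 and Nitab4.5_0000376g0090. The last stood at 5.23 ± 0.701 in NC82, 4.92 ± 0.213 in M21 and 5.16 ± 0.374 in G27 (SD, n = 3), and its log2 changes were -0.07 in M21 and -0.01 in G27. The low genes not called were Nitab4.5_0001223g0010, Nitab4.5_0000651g0040, Nitab4.5_0000644g0160, Nitab4.5_0003964g0030, Nitab4.5_0007923g0060 and Nitab4.5_0002604g0030, with Nitab4.5_0000682g0080 at 3.80 ± 0.359, 3.03 ± 0.591 and 3.67 ± 0.630 (SD, n = 3) in NC82, M21 and G27. A p that misses the threshold does not show that these genes were equal between groups.

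Replicates of a group differed little for most genes. The median coefficient of variation over the 40 genes was 12.6% in NC82, 9.31% in M21 and 14.9% in G27. Nitab4.5_0000682g0070 varied widely in every group, at 3.09, 8.68 and 11.99 in NC82, 2.92, 6.27 and 6.85 in M21 and 7.70, 8.87 and 2.91 in G27. All 3 groups overlapped, and the SE of its log2 change, 0.45, was the largest of the 40 genes. Nitab4.5_0007923g0060, at a level near 1, ranged from 0.40 to 1.68 in NC82 and from 0.88 to 2.40 in G27.

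Gene numbers on the same scaffold gave the neighbours. With family genes counted as neighbours when at most 50 apart in number, 45 of the 210 family genes fell into 21 clusters, and 8 of the 40 expressed genes lay in 6 of these. Only 2 clusters held more than 1 expressed gene. In the first, Nitab4.5_0000099g0140 fell in both lines from a mean of 47.5 in NC82, while its neighbour Nitab4.5_0000099g0090 stood at 6.01 ± 1.18 in NC82, 6.30 ± 0.948 in M21 and 6.64 ± 0.551 in G27 (SD, n = 3) and was not called. The third gene of that cluster, Nitab4.5_0000099g0080, reached at most 0.06. The other cluster was the adjacent pair Nitab4.5_0000682g0070 and Nitab4.5_0000682g0080, of which neither was called. Nitab4.5_0003436g0010, the family gene beside the strongly raised Nitab4.5_0003436g0020, was listed at 0 in all 9 libraries, and Nitab4.5_0007988g0010, beside Nitab4.5_0007988g0020, reached at most 0.9.

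The domain names did not set the expressed genes apart in number. A peroxidase active site signature was listed for 22 of the 40 expressed genes (55.0%) and 90 of the 170 others (52.9%). The haem-ligand binding signature was listed for 23 (57.5%) and 99 (58.2%). Both signatures were listed for 16 of the 40 and 64 of the 170, and neither for 11 and 45. These shares describe the annotation and were not tested.

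Genes that make or remove hydrogen peroxide, the co-substrate of peroxidases, were counted from word lists. Of all tested genes, 13.0% rose and 11.3% fell in M21 against NC82, 7.87% rose and 6.05% fell in G27 against NC82, and 5.47% were higher and 6.40% lower in M21 than in G27. At an unadjusted p under 0.05, in either direction, the shares were 35.9%, 26.3% and 25.4%. NADPH oxidases, which produce superoxide at the plasma membrane, had 2 of 7 tested genes up and 0 down in M21 against NC82, and 1 up and 0 down in G27. At an unadjusted p under 0.05 the limma counts were 2 and 0 in each line. Nitab4.5_0000976g0320, called in both lines, stood at 9.42 ± 0.682 in NC82, 13.9 ± 0.839 in M21 and 13.0 ± 1.01 in G27 (SD, n = 3). Superoxide dismutases, which turn superoxide into hydrogen peroxide, had 0 of 18 up and 4 down in M21, and 0 up and 1 down in G27. At an unadjusted p under 0.05 limma gave 1 up and 6 down in M21, and 2 up and 1 down in G27. The 7 of 18 in M21 lay near the share of all tested genes. Germin-like proteins, some of which have this activity in the wall, had 2 of 21 up and 8 down in M21 and 2 up and 5 down in G27. Their gene Nitab4.5_0000189g0170 fell from 425.9 ± 9.18 to 213.2 ± 18.3 in M21 and 209.4 ± 11.9 in G27 (SD, n = 3). In M21 against G27, 1 germin-like gene was higher and 4 were lower, and superoxide dismutases had 0 higher and 2 lower. For NADPH oxidases 0 were called between the lines, with 2 higher and 0 lower at an unadjusted limma p under 0.05.

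Of the enzymes that remove peroxides inside the cell, ascorbate peroxidases had 1 of 17 up and 8 down in M21 and 1 up and 2 down in G27. Between the lines, 1 was higher and 4 were lower in M21, with a median log2 change of -0.014, beside -0.01 for all tested genes. Nitab4.5_0008525g0010, an ascorbate peroxidase, fell in G27 from 13.3 ± 1.58 to 4.46 ± 0.360 (SD, n = 3), by a log2 change of -1.39. Its M21 mean lay between these, at 7.62 ± 0.921 (SD, n = 3). M21 was above G27 in this gene by a log2 difference of 0.66 (SE 0.10, limma adjusted p = 0.0029). All 4 tested peroxiredoxins fell in M21 and 0 were called in G27 by limma, also 0 at an unadjusted p under 0.05, and all 4 were lower in M21 than in G27. Glutathione peroxidases had 4 of 13 up and 1 down in M21 and 0 up and 1 down in G27 (1 up and 3 down at an unadjusted p under 0.05), and 6 were higher and 1 lower in M21 than in G27. The catalase list, of which 2 genes were described as aminotransferases, had 1 of 8 up and 0 down in M21 and 0 called in G27. At an unadjusted p under 0.05 limma gave 2 up and 0 down in M21, and 0 up and 1 down in G27. The 1 of 8 called up in M21 lay near the 13.0% of all tested genes that rose. Median log2 changes in M21 against NC82 were -0.13 for ascorbate peroxidases, -0.41 for peroxiredoxins, 0.15 for glutathione peroxidases and -0.0012 for catalases, beside 0.03 for all tested genes.

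Genes of lignin formation and of wall proteins were counted likewise, beside 13.0% up and 11.3% down among all tested genes in M21 and 7.87% and 6.05% in G27. Laccases, the other oxidases that join monolignols, had 0 of 12 up and 9 down in M21, with a median log2 change of -0.57, and 0 called in G27 by limma, with a median of -0.29. At an unadjusted p under 0.05, 10 fell in M21 and 3 in G27, and 0 rose in either. The direct test of the lines called 0 of the 12 higher and 1 lower in M21 than in G27, with a median of -0.31. Of all tested genes, 5.47% were higher and 6.40% lower in that test. At an unadjusted p under 0.05 limma gave 0 higher and 4 lower laccases. The phenylpropanoid list matched only phenylalanine ammonia-lyases, the entry enzyme of the pathway, with 1 of 8 up and 5 down in each line against NC82. Its gene Nitab4.5_0012382g0010 rose from 4.20 ± 0.202 in NC82 to 14.2 ± 1.74 in M21 and 8.76 ± 0.921 in G27 (SD, n = 3), while Nitab4.5_0005320g0020 fell in G27 by a log2 change of -1.09. Of 39 tested extensin-type genes, which include wall proteins that peroxidases cross-link and are mostly Pollen Ole e 1 domain proteins, 7 rose and 11 fell in M21 and 5 rose and 4 fell in G27. Between the lines, 3 of these were higher and 13 lower in M21. The dirigent list matched no description.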

How the data were processed

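The authors deposited a table with 1 normalized expression signal per gene and library. Its header names no unit, and the depth in reads is unknown. HISAT2, StringTie and RSEM appear in the submitters' processing notes. Not given in the sources used here were versions, roles, genome build, annotation and strand setting. The deposited signal of the group means equalled the mean of the library columns to within 3.3e-07 and was not used. Libraries were grouped by label. All 33188 genes at 1 or more in at least 3 libraries were fitted as log2(value + 1) over all 9 libraries with limma 3.58.1 (empirical Bayes with mean trend, R 4.3.3), two-sided, Benjamini-Hochberg over these genes, called at an adjusted p under 0.05. The fit was tested on simulated data. Relative depths are modes of ratios of low values. Figures used Python 3.11.15 and matplotlib 3.10.9.

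The genes, the word lists and the library-removal alternative were chosen with earlier results of these data known. Named genes were the 10 highest by mean, per comparison the 6 largest called rises and falls, genes called in opposite directions, clustered genes and those at the level threshold. The other peroxidases are named to account for all 40. One gene per related list could be named by smallest p per direction and comparison. Lists for Casparian strip and fasciclin proteins matched no description. The pollen list, with 74 tested genes, had 11 up and 23 down in M21 against NC82 and 3 up and 10 down in G27, and is mostly extensin-type and expansin domains. Alternatives were the pseudocount, the filter, scaling, samples fitted, replicate block, mean trend and libraries left out.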

Additional observations from a re-analysis of the deposited data

Results flagged for a closer look

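The lines' changes against NC82 differed by the direct test of M21 against G27 in 15 of the 40 peroxidase genes, each called by limma at an adjusted p under 0.05. Of all tested genes, 11.9% were called in this test. In 9 of these the signs of the changes against NC82 also differed between the lines, although no gene was called in opposite directions. In all 9 the change in G27 against NC82 was not called (limma adjusted p of 0.095 to 0.98), so its sign is uncertain. The share of all tested genes with such signs was not counted. Nitab4.5_0007988g0020, 1 of the 15, met the level rule only through its M21 libraries, so the rule favoured its difference and its test supports nothing.

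Higher in M21 were Nitab4.5_0003436g0020 by a log2 difference of 1.51, Nitab4.5_0007988g0020 by 1.29, Nitab4.5_0011461g0020 by 0.97, Nitab4.5_0004989g0030 by 0.62 and Nitab4.5_0000241g0260 by 0.57. Smaller differences were 0.56 for Nitab4.5_0005079g0030, 0.55 for Nitab4.5_0000669g0080, 0.44 for Nitab4.5_0000078g0210 and 0.28 for Nitab4.5_0008126g0020. Lower in M21 were Nitab4.5_0001176g0090 at -1.19, Nitab4.5_0004911g0010 at -0.84, Nitab4.5_0001952g0250 at -0.65, Nitab4.5_0009842g0020 at -0.59, Nitab4.5_0000502g0090 at -0.50 and Nitab4.5_0006204g0010 at -0.49. M21 libraries had the lower estimated relative depths, 0.794 to 0.893 against 0.853 to 0.964 in G27, and the part of depth in these differences was not tested.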

How the results depend on the processing

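The counts of peroxidase genes called stayed within 1.5 times under a pseudocount of 0.1, no filter, median-ratio scaling, only the groups compared, no mean trend, and without the 3 libraries with positive scores on the third principal component. With 1 library left out, the counts ranged from 13 to 16 higher and 7 to 9 lower in M21 against NC82, from 10 to 10 higher and 5 to 6 lower in G27 against NC82, and from 5 to 11 higher and 5 to 6 lower in M21 against G27. Shares of all tested genes then ran from 9.45% to 13.6% higher and 8.29% to 11.7% lower in M21 against NC82. For G27 against NC82 they ran from 5.68% to 8.17% higher and 4.33% to 6.13% lower. For M21 against G27 they ran from 3.07% to 5.77% higher and 3.87% to 6.84% lower. The count of genes called higher in M21 than in G27 was 9, and fell to 5 without M21 replicate 1 or 2, which leaves fewer samples. Of the 53 called changes, 53 kept their call with median-ratio scaling, 52 with the pseudocount of 0.1, 49 without the filter and 45 without the 3 libraries. With the pseudocount of 0.1, 13 of the 53 changed in size by over 1.5 times, all in genes of low level. They include Nitab4.5_0002195g0020 at 1.12 in M21 and 1.27 in G27 against NC82, Nitab4.5_0011727g0030 at -0.92 and -0.99, Nitab4.5_0004911g0010 at -0.77 in M21 against NC82 and Nitab4.5_0000241g0260 at 0.97 in M21 against G27. None was reversed, where an uncalled change counts as reversed only if called the other way. Median-ratio scaling moved the median of all genes by under 0.1. It turned the balance of the shares of all tested genes called in each comparison. They became 12.2% higher and 13.0% lower in M21 against NC82, from 13.0% and 11.3%. For G27 against NC82 they became 6.97% and 7.66%, from 7.87% and 6.05%. For M21 against G27 they became 6.35% and 5.81%, from 5.47% and 6.40%. Without the filter, 6 genes in place of 9 were called higher in M21 than in G27, as also without the 3 libraries. Of all genes fitted, 3.19% and 3.93% were called higher under these settings.

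Replicate numbers were not taken to pair the samples, as the labels do not say whether they do. Deviations of same-numbered libraries correlated between -0.21 and 0.06 for M21 and NC82, between -0.02 and 0.34 for G27 and NC82 and between -0.06 and 0.13 for the lines. Those of differently numbered libraries of different groups correlated between -0.34 and 0.28. With the replicate block, M21 against NC82 had 14 higher and 8 lower, G27 against NC82 10 and 5, and M21 against G27 8 and 6.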
